A study of Homo sapiens with 16 samples.

Results

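The genes described here are 39 genes of the replication fork and of thymidylate supply. They were chosen by name for their function, with earlier results of these data known. They comprise 12 subunits of the replicative DNA polymerases and primase, 9 genes of the sliding clamp, its loader and the lagging strand, 6 genes of helicase activation, 8 genes of fork protection and single-strand binding, and 4 genes of thymidylate supply and uracil removal, out of 63677 gene identifiers in the count table. They were followed in MiaPaCa2 and PANC1, established human lines of pancreatic ductal adenocarcinoma. Each line was left without either drug (control) or given 40 nM gemcitabine, 50 µM genistein or both, for 24 hours. Each of these 4 groups has 2 replicates, I and II, and the 16 poly-A RNA libraries hold 12943482 to 31991860 reads counted on genes. The study's methods call the replicates biological, the labels do not state whether they came from separate cultures, and p-values measure the spread between these libraries.

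At a fork, the GINS complex and CDC45 join the MCM ring to form the active helicase, a step that needs the kinase CDC7. Primase and polymerase alpha lay down primers, the RFC complexes load the PCNA clamp, and polymerases epsilon and delta extend the leading and lagging strands, while FEN1 and LIG1 process and join Okazaki fragments. RPA coats single-stranded DNA, and CLSPN, TIMELESS and TIPIN hold the fork together and pass the stress signal to the checkpoint kinase CHK1. TYMS makes thymidylate from deoxyuridylate, TK1 salvages thymidine, DUT removes dUTP and UNG cuts uracil out of DNA. Many of these genes are known E2F targets that are transcribed at the start of S phase. Gemcitabine is a deoxycytidine analogue that is built into DNA and also inhibits ribonucleotide reductase. Genistein is a phytoestrogen from soy. In RNA from whole cultures, a larger share of cells in S phase and more RNA per cell cannot be told apart.

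Both lines carried high levels of the keratins KRT8 and KRT18 and of the mesenchymal marker VIM. The keratin KRT19 stood at 56.5 to 204 FPKM in MiaPaCa2 and at 282 to 749 in PANC1. KRT7 stood at 3.95 to 21.1 FPKM in PANC1 and was lower than this range in every MiaPaCa2 library. EPCAM was listed at 0 in every MiaPaCa2 library and at 7.71 to 12.8 FPKM in PANC1. Markers of leukocytes reached at most 0.260 FPKM and those of acinar cells at most 0.367, and among the endothelial markers CDH5 reached 1.72 FPKM in MiaPaCa2. Libraries also differed in how counts followed the GC content of genes. Against the mean of its line, the slope of the log2 count per 10 percentage points of GC was -0.24 and -0.15 for MiaPaCa2 control libraries I and II, 0.15 and 0.06 for the MiaPaCa2 gemcitabine libraries, and 0.30 and -0.08 for the PANC1 control libraries. Beside calls lost when this trend was removed (the GC correction), the loss is stated. UHRF1 has no GC content in the annotation and no corrected value.

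Promoter sequences show what the members share in their DNA. The RefSeq promoter table, with 250 bases before and 50 bases after each gene start on GRCh38.p14, held 34 of the 39 members. It was searched on both strands for 4 spellings of the E2F site, TTTCCCGC, TTTCGCGC, TTTGCCGC and TTTGGCGC. A match was present in 18 of the 34 members, or 52.9%, against 4.0% of the 27305 genes in that table. Counted per promoter instead of per gene, an E2F match lay in 37.3% of the 51 member promoters and in 3.3% of all 35116 promoters. The CCAAT box, which NF-Y binds, lay in 47.1% of these member promoters and in 34.6% of all. The CHR element of cell cycle genes, searched as TTTGAA or TTCGAA, lay in 5.9% of the member promoters and in 16.4% of all. Windows are printed for a selection of members with a match before the gene start, which does not represent the called members. Among the members called with gemcitabine, PRIM1, RFC2, RFC5, FEN1 and TK1, for example, held no match, while GINS4 and RPA2 had no promoter entry. The windows below show the matches in capitals, each with 11 bases on either side, given 5′ to 3′ on the strand of the gene. Each was placed on GRCh37, the build of the data, by a single exact match of its promoter.
POLA2, chr11:65029369-65029398, plus strand: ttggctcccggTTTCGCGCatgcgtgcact
GINS2, chr16:85722573-85722602, minus strand: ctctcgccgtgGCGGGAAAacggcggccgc
TIPIN, chr15:66649067-66649100, minus strand: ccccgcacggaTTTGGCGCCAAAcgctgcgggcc
UNG, chr12:109535903-109535932, plus strand: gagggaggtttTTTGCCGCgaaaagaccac
RFC3, chr13:34392220-34392249, plus strand: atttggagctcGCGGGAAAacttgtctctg
LIG1, chr19:48673697-48673726, minus strand: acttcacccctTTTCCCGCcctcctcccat
PCNA, chr20:5107309-5107338, minus strand: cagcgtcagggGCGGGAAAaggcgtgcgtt
TYMS, chr18:657603-657632, plus strand: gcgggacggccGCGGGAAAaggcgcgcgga
POLA2, GINS2, TIPIN and UNG are called with gemcitabine in PANC1, LIG1 in MiaPaCa2 and RFC3 in opposite directions in the lines, whereas PCNA and TYMS are called in neither. The windows lie between 125 and 13 bases before the gene start of the RefSeq table. By the GRCh37 annotation, which also holds starts further upstream, all 30 bases of the RFC3 and LIG1 windows, 15 of POLA2 and 10 of UNG lie in annotated exons. GINS2, RFC3, PCNA and TYMS hold the same 8 letters, which LIG1 holds on the other strand, and the TIPIN window holds 2 overlapping matches on opposite strands.

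In the untreated lines all 39 members were expressed above 1 FPKM. FPKM, which is per transcript length, ranked POLD2, a small subunit of polymerase delta, highest in both lines, at a mean of 547 in MiaPaCa2 and 525 in PANC1. TYMS followed with 324 and 290 FPKM in the MiaPaCa2 control libraries I and II and 308 and 315 in PANC1. The lowest levels were those of TIPIN in MiaPaCa2, with a mean of 7.36 FPKM, and of POLA1, the catalytic subunit of polymerase alpha, in PANC1, with 5.93. The median over the members was 42.0 FPKM in MiaPaCa2 and 38.5 in PANC1.

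A gene was called when its adjusted p (limma-voom, Benjamini-Hochberg over all genes tested) was at most 0.05, its log2 fold change at least 0.4 in size and its mean level over 1 FPKM in treated cells (here, in at least 1 line). Between the untreated lines 23 of the 39 members were called, 14 higher and 9 lower in PANC1, where 52.2% of the 17863 genes tested were called, 27.9% higher and 24.3% lower. The share of members was 59.0%, close to this background. POLD4, the smallest polymerase delta subunit, stood at 11.4 and 16.1 FPKM in MiaPaCa2 and at 54.9 and 55.2 in PANC1, a log2 difference of 1.74 (SE 0.28, adjusted p = 9.5e-05 by limma-voom). POLA2, the regulatory subunit of polymerase alpha, had 43.5 and 44.8 against 127 and 115.7 FPKM (log2 difference 1.51, SE 0.10). Its catalytic partner POLA1 went the other way, with 17.1 and 15.0 against 4.95 and 6.92 FPKM (log2 difference -1.48, SE 0.16). In each of these pairs of groups the libraries did not overlap.

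RFC3, a clamp loader subunit, had 49.6 and 47.4 FPKM in MiaPaCa2 and 10.5 and 15.9 in PANC1 (log2 difference -1.91, SE 0.17, adjusted p = 4.1e-07 by limma-voom). GINS4 had 39.4 and 45.9 against 20.3 and 17.6 FPKM, with a log2 difference in counts of -1.50 (SE 0.11). The helicase genes GINS2, GINS3 and CDC45 were also lower in PANC1, at log2 differences of -0.92, -0.66 and -0.51, while GINS1 did not pass at 0.27. Of the thymidylate genes, DUT was higher in PANC1 by 1.08 and UNG by 0.80 on the log2 scale. TYMS differed by -0.03 (95% confidence interval -0.18 to 0.12), and by -0.34 with the GC correction. UHRF1, which recognizes hemimethylated DNA behind the fork, was lower by 0.69 in PANC1 (log2 difference -0.69). RPA3, the smallest RPA subunit, was called higher at 0.43, and TIMELESS at 0.86. FEN1, POLD3 and RPA3 were not called with the GC correction, which gave 25 called members, 11 higher and 14 lower. POLD4 shares 21.3% of its exon length with another gene on the same strand and GINS4 21% with a noncoding RNA on the opposite strand, so reads may be shared there.

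**Figure D1:**
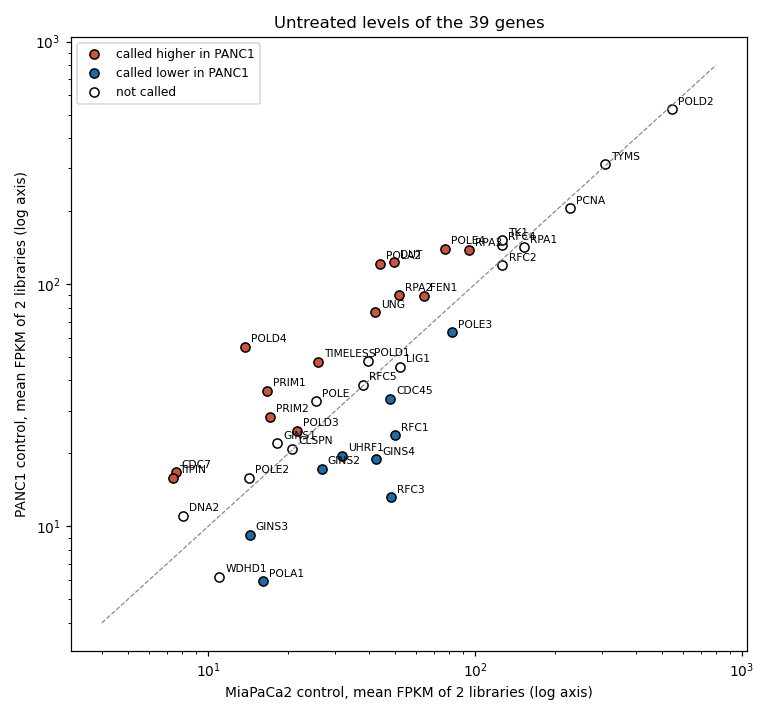
Mean FPKM of the 2 control libraries of each line for the 39 members, both axes logarithmic; the dashed line marks equal levels. POLD2 lies at the top in both lines, RFC3 and GINS4 lie far below the line, and POLD4 and POLA2 far above it.

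Gemcitabine alone was compared with the control to ask how these genes respond to the drug. In MiaPaCa2, 18 of the 39 members were called (46.2%), 16 higher and 2 lower, where 29.6% of the 16064 genes tested were called, 15.0% higher and 14.6% lower. The median log2 fold change was 0.29 over the members and -0.01 over all genes tested. In PANC1, 17 members were called (43.6%), all of them higher, where 7.52% of the 16909 genes tested were called, 4.49% higher and 3.03% lower. There the median was 0.63 over the members and 0.03 over all genes tested, and 38 of the 39 members had a positive value. PRIM1, RFC2, RFC5, FEN1, GINS3, GINS4, RPA2 and CLSPN rose in both lines. Levels below are normalized counts (CPM, counts scaled to a common library size), scaled by TMM within a line, for libraries I and II.

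**Figure D2:**
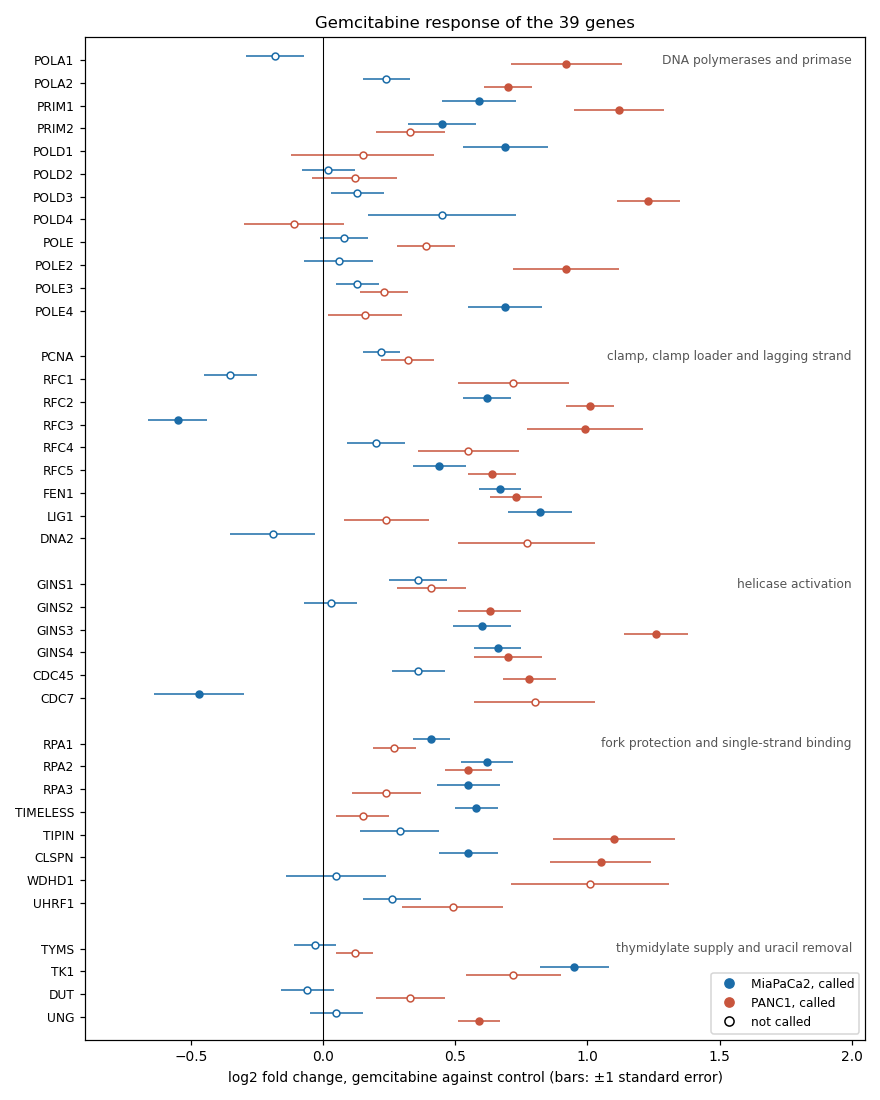
Log2 fold change with gemcitabine against control for the 39 members, grouped by role, with standard errors; filled points are called members. In PANC1 the called members run from 0.55 (RPA2) to 1.26 (GINS3), and in MiaPaCa2 from -0.55 (RFC3) to 0.95 (TK1).

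Among the polymerases and primase, 4 of 12 members (33.3%) rose in MiaPaCa2 and 5 of 12 (41.7%) in PANC1. Of all genes tested, 29.6% were called in MiaPaCa2, 15.0% higher, and 7.52% in PANC1, 4.49% higher. PRIM1 (chromosome 12, 57124222 to 57146158 on GRCh37), the catalytic primase subunit, had 18.0 and 15.9 CPM in the MiaPaCa2 controls and 24.7 and 26.6 with gemcitabine (log2 fold change 0.59, SE 0.14). In PANC1 it went from 29.9 and 40.9 to 75.7 and 78.9 CPM, a log2 fold change of 1.12 (SE 0.17, adjusted p = 0.00975 by limma-voom). Neither pair of groups overlapped. POLD3 (chromosome 11, 74204896 to 74380162), a polymerase delta subunit that is also needed for break-induced replication, rose in PANC1 from 59.8 and 68.8 to 146 and 158 CPM. Its log2 fold change was 1.23 there (SE 0.12, adjusted p = 0.00222 by limma-voom), and 0.13 (SE 0.10) in MiaPaCa2, where it was not called. POLA1, POLA2 and POLE2 rose in PANC1, by 0.92, 0.70 and 0.92 on the log2 scale, and had values of -0.18, 0.24 and 0.06 in MiaPaCa2, where they were not called.

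POLD1, the catalytic subunit of polymerase delta, was called in MiaPaCa2, with 65.1 and 76.6 CPM in the controls and 127 and 102.4 with gemcitabine (log2 fold change 0.69, SE 0.16). Under the GC correction its log2 fold change was 0.15 and it was not called. POLD1 has the highest GC content of the members, 64.9%. POLE4, a histone-fold subunit of polymerase epsilon, rose in MiaPaCa2 from 31.9 in both controls to 45.9 and 57.6 CPM, by 0.69 on the log2 scale, and by 0.59 with the GC correction. PRIM2 rose in MiaPaCa2 as well, by 0.45. POLD2, the member with the highest FPKM, had log2 fold changes of 0.02 in MiaPaCa2 (95% confidence interval -0.20 to 0.24) and 0.12 in PANC1 (-0.25 to 0.48). POLD4 had 0.45 and -0.11 and was called in neither, with 3.05 and 2.60 CPM in the MiaPaCa2 controls, the lowest of any member.

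In the clamp and lagging strand group, 4 of 9 members rose and RFC3 fell in MiaPaCa2, and 4 of 9 rose in PANC1. The called share was 55.6% in MiaPaCa2 and 44.4% in PANC1, against 29.6% and 7.52% of all genes tested. RFC2, a subunit of the clamp loader, rose from 110 and 115.95 to 171 and 176 CPM in MiaPaCa2 (log2 fold change 0.62, SE 0.09). In PANC1 it rose from 110.8 and 103.9 to 220 and 211 CPM (log2 fold change 1.01, SE 0.09, adjusted p = 0.00149 by limma-voom). FEN1, the flap endonuclease, rose by 0.67 (SE 0.08) in MiaPaCa2 and 0.73 (SE 0.10) in PANC1. RFC5 rose by 0.44 and 0.64, and its MiaPaCa2 value came to 0.40 with the GC correction and fell short of the fold threshold.

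RFC3 (chromosome 13, 34392206 to 34540695) moved in opposite directions in the lines. In MiaPaCa2 it stood at 136 and 130 CPM in the controls and 87.7 and 94.0 with gemcitabine, a log2 fold change of -0.55 (SE 0.11, adjusted p = 0.00242 by limma-voom). In PANC1 it stood at 28.2 and 43.4 CPM in the controls and 64.9 and 76.8 with gemcitabine, a log2 fold change of 0.99 (SE 0.22, adjusted p = 0.0335). Drug and control libraries did not overlap in either line. With the GC correction RFC3 had -0.30 in MiaPaCa2, where it was no longer called, and 0.76 in PANC1, where it was. Each call was kept in 9 of 12 alternative analyses, at -0.56 to -0.30 in MiaPaCa2 and 0.76 to 1.10 in PANC1 over all 12. The PANC1 call was lost with limma-trend on log2(FPKM + 1), with a replicate block and with only the 4 libraries compared. It was also lost without gemcitabine library I or II or control library I. LIG1, the ligase of Okazaki fragments, rose in MiaPaCa2 from 61.1 and 64.1 to 120 and 101.8 CPM (log2 fold change 0.82, SE 0.12), and by 0.54 with the GC correction. PCNA had 334 and 332 CPM in the MiaPaCa2 controls against 385 and 390 with gemcitabine, and 276 and 315 against 357 and 381 in PANC1. Its log2 fold changes were 0.22 and 0.32, below the fold threshold in both lines, although the libraries did not overlap in either. In PANC1 PCNA did not pass the adjusted p either.

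Of the 6 helicase activation genes, GINS3 and GINS4 rose and CDC7 fell in MiaPaCa2, and GINS2, GINS3, GINS4 and CDC45 rose in PANC1. The called share was 50.0% in MiaPaCa2 and 66.7% in PANC1, against 29.6% and 7.52% of all genes tested. GINS3 (chromosome 16, 58328984 to 58440051) had 36.8 and 33.2 CPM in the MiaPaCa2 controls and 51.3 and 54.8 with gemcitabine, a log2 fold change of 0.60 (SE 0.11). In PANC1 it had 23.3 and 21.6 CPM and then 53.2 and 53.4, the largest rise of any member there, at 1.26 (SE 0.12, adjusted p = 0.00246 by limma-voom). GINS4 rose by 0.66 and 0.70. CDC45 rose in PANC1 from 50.9 and 46.2 to 83.6 and 81.9 CPM (log2 fold change 0.78, SE 0.10), and had 0.36 (SE 0.10) in MiaPaCa2, which passed the adjusted p but not the fold. GINS2 had 67.7 and 66.1 CPM in the MiaPaCa2 controls and 65.8 and 71.2 with gemcitabine, and rose in PANC1 from 38.2 and 33.7 to 54.3 and 55.7 CPM (log2 fold change 0.63, SE 0.12). CDC7 was called lower in MiaPaCa2 at -0.47 (SE 0.17, adjusted p = 0.0448 by limma-voom), from 22.4 and 21.8 to 15.5 and 16.4 CPM. That call was lost with the GC correction, at -0.22, and was kept in 2 of 12 alternative analyses and in none of the 4 that left out a library. In PANC1 CDC7 had 33.0 and 49.7 CPM in the controls and 69.2 and 74.8 with gemcitabine, which did not pass the adjusted p (0.0691) and did with the GC correction.

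Among the fork protection genes, RPA1, RPA2, RPA3, TIMELESS and CLSPN rose in MiaPaCa2, and RPA2, TIPIN and CLSPN rose in PANC1. The called share was 62.5% in MiaPaCa2 and 37.5% in PANC1, against 29.6% and 7.52% of all genes tested. CLSPN, the mediator of CHK1 activation, stood at 62.4 and 58.1 CPM in the MiaPaCa2 controls and at 88.8 and 87.9 with gemcitabine (log2 fold change 0.55, SE 0.11). In PANC1 it stood at 58.1 and 82.5 and then at 141 and 150 CPM (log2 fold change 1.05, SE 0.19, adjusted p = 0.0189 by limma-voom). TIPIN rose in PANC1 from 16.2 and 21.7 to 40.1 and 40.9 CPM (log2 fold change 1.10, SE 0.23), while its partner TIMELESS had 246 and 215 against 260 and 247 CPM there, a value of 0.15 (SE 0.10). In MiaPaCa2 TIMELESS rose from 132 and 119 to 185 and 191 CPM (log2 fold change 0.58, SE 0.08) and TIPIN had 0.29 (SE 0.15). RPA1 was called in MiaPaCa2 at 0.41, and not with the GC correction, at 0.35. RPA3 rose in MiaPaCa2 from 44.5 and 36.0 to 57.7 and 60.0 CPM, by 0.55, and had 0.24 in PANC1. UHRF1 had 0.26 in MiaPaCa2 and 0.49 in PANC1 and was called in neither. WDHD1, which tethers polymerase alpha to the helicase, had 0.05 and 1.01, the second with an SE of 0.30.

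The 4 genes of thymidylate supply did not move together. TK1 (chromosome 17, 76170172 to 76183314) rose in MiaPaCa2 from 185 and 195 to 384 and 348 CPM, a log2 fold change of 0.95 (SE 0.13, adjusted p = 1.6e-04 by limma-voom). This was the highest value of a member there. The GC correction gave 0.56, still called but below PRIM1 at 0.82, PRIM2 at 0.80, RPA3 and CLSPN at 0.65 and POLE4 at 0.59. In PANC1 TK1 had 273 and 203 CPM in the controls and 421 and 353 with gemcitabine (log2 fold change 0.72, adjusted p = 0.0502), which did not pass, and was called with the GC correction at 0.80. TYMS (chromosome 18, 657653 to 673578) had 376 and 343 CPM against 342 and 362 in MiaPaCa2 and 355 and 355 against 376 and 395 in PANC1. Its log2 fold changes were -0.03 (95% confidence interval -0.20 to 0.13) and 0.12 (-0.05 to 0.28), so a change of 0.4 in size lay outside both intervals. TYMS shares 39.9% of its exon length with ENOSF1 on the opposite strand, and the strand setting of the counting is not given in the sources used here. DUT had 46.1 and 43.1 CPM against 41.4 and 44.3 in MiaPaCa2 and 84.5 and 105.3 against 115.7 and 124 in PANC1, and was called in neither.

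UNG (chromosome 12, 109535402 to 109564530) had 110 and 96.9 CPM in the MiaPaCa2 controls and 102.45 and 112.01 with gemcitabine, which overlap. In PANC1 it rose from 189 and 176 to 271 and 276 CPM (log2 fold change 0.59, SE 0.08, adjusted p = 0.00764 by limma-voom). The gene has 2 starts that give the nuclear UNG2 and the mitochondrial UNG1 proteins, and the deposited transcript FPKM separate them as estimates of Cufflinks. In PANC1 the UNG2 transcript (ENST00000242576) had 69.1 and 68.6 FPKM in the controls and 115.4 and 118 with gemcitabine, while the UNG1 transcript (ENST00000336865) had 8.58 and 5.65 and then 7.59 and 6.26. The higher level with the drug thus lay in the nuclear form, which made up 88.5% and 91.9% of the gene in the controls. In MiaPaCa2 UNG2 made up 62.1% and 65.3% in the controls and 72.6% and 72.1% with gemcitabine. The promoter window printed above for UNG lies before a downstream RefSeq start (109535977) and spans the annotated start of the UNG1 transcript (109535923), and the promoter of the UNG2 start (109535402) held no E2F match.

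Members with and without an E2F match were both among the called. In PANC1, 9 of the 14 called members that have a promoter entry held a match, and 9 of the 20 members that were not called. In MiaPaCa2, a match was held by 4 of 13 members that rose, by both members that fell, RFC3 and CDC7, and by 12 of the 19 members that were not called.

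The calls in PANC1 depended on having both gemcitabine libraries, and some of them also on the control libraries. POLA1, POLE2, RFC3 and TIPIN were not called without control library I, nor was GINS2 without control library II. Without gemcitabine library I or without gemcitabine library II, 3 members were called in each case, POLD3, RFC2 and GINS3, while the median over the members was 0.64 and 0.61. With the GC correction 24 members were called in PANC1, among them all 17 of the main analysis. In MiaPaCa2, the GC correction left 15 called members, 13 of them shared with the main analysis, and none was lower.

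**Figure D3:**
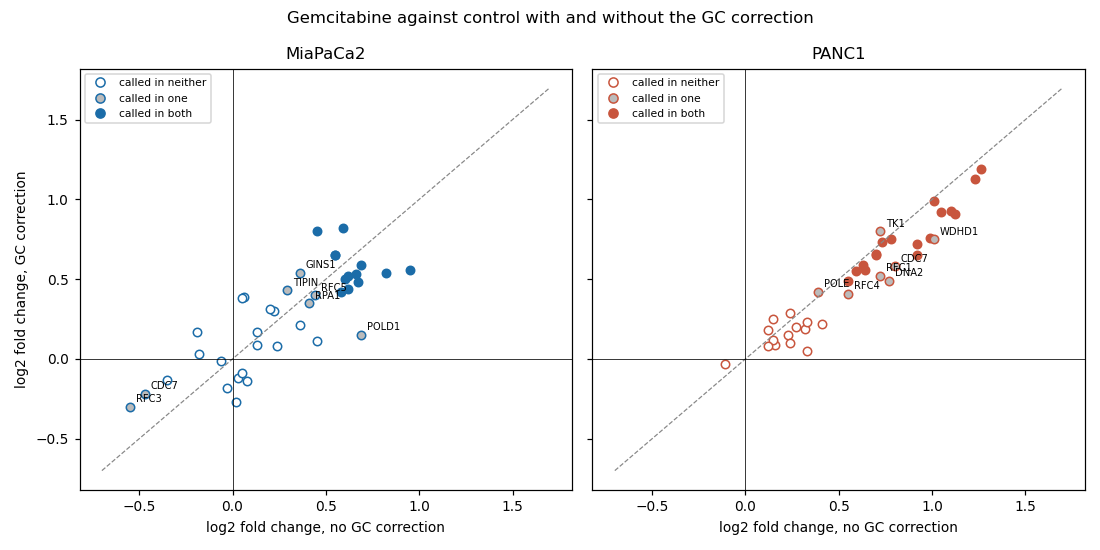
Log2 fold change with gemcitabine against control without (horizontal axis) and with (vertical axis) the GC correction for the 38 members with a GC content; names mark members called in only 1 of the analyses. In MiaPaCa2 POLD1 drops from 0.69 to 0.15, and in PANC1 all members called without the correction stay called.

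Whether the response differs between the lines was tested in a model of all 16 libraries, by the adjusted p alone. It differed for 10 of the 39 members (25.6%), where it differed for 15.3% of the 17863 genes tested, with 6.21% more positive and 9.06% less positive in PANC1. The response was more positive in PANC1 for POLA1, POLD3, POLE2, RFC1, RFC3, GINS2, GINS3, CDC7 and UNG, and less positive for TIMELESS. The difference was largest for RFC3, at 1.44 (SE 0.24, adjusted p = 0.00243 by limma-voom), followed by CDC7 at 1.18 (SE 0.31), POLA1 and POLD3 at 1.01 each (SE 0.22 and 0.14) and RFC1 at 0.98 (SE 0.23). RFC1, the large clamp loader subunit, had 94.6 and 92.5 CPM against 72.6 and 74.0 in MiaPaCa2 and 37.9 and 58.7 against 79.4 and 79.8 in PANC1, with log2 fold changes of -0.35 and 0.72. No difference was called for FEN1 (-0.04, 95% confidence interval -0.34 to 0.26), GINS4 (-0.05, -0.37 to 0.26), PCNA (0.00, -0.22 to 0.23) or TYMS (0.05, -0.16 to 0.27). With the GC correction 18 members passed, 9 of them shared, and FEN1 and TYMS were among those gained, at 0.23 each, while POLE2 was lost. The number of members called ran from 2, without MiaPaCa2 control library I or PANC1 gemcitabine library II, to 16, without PANC1 control library II. POLD3 and RFC3 were called in all 8 analyses that left out a library.

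**Figure D4:**
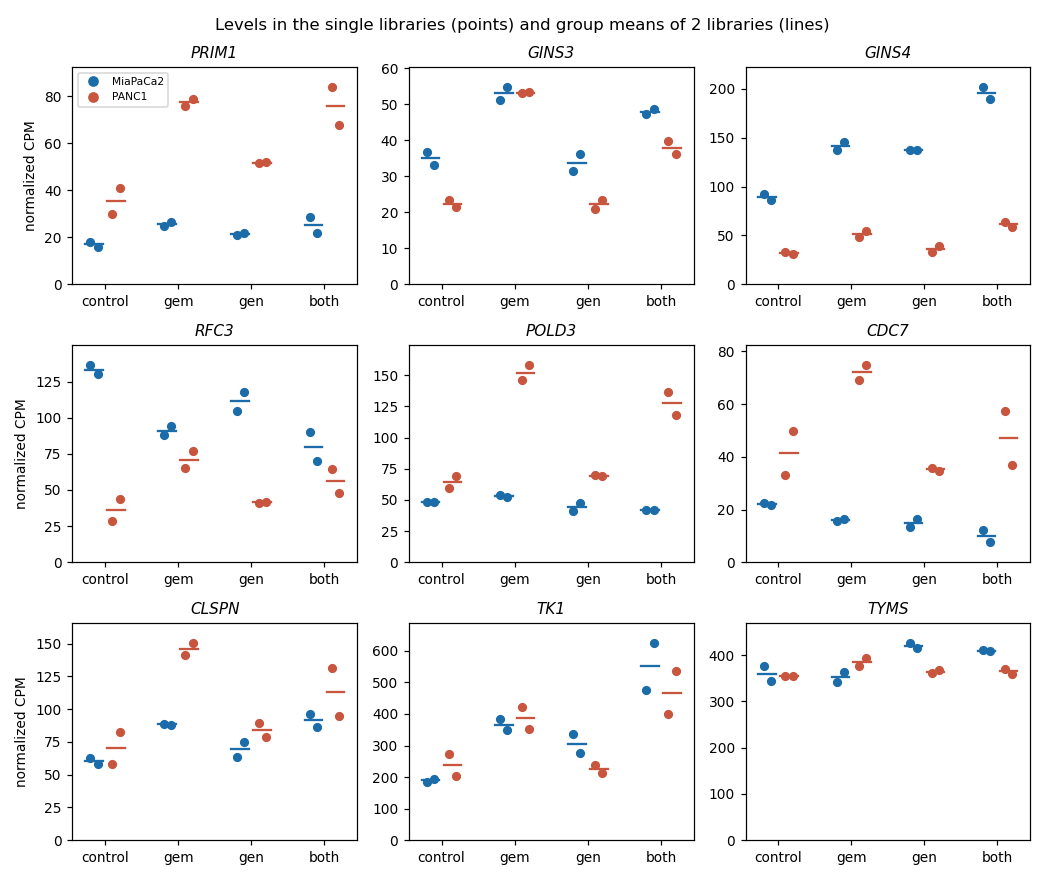
Normalized CPM of 9 members in each library (points) with the mean of the 2 libraries of a group (lines), in MiaPaCa2 and PANC1, for control, gemcitabine (gem), genistein (gen) and both drugs. RFC3 falls with gemcitabine in MiaPaCa2 and rises in PANC1, TK1 reaches 477 and 625 CPM with both drugs in MiaPaCa2, and TYMS stays between 342 and 426 CPM in all 16 libraries.

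Gemcitabine was also compared with no gemcitabine in cells given genistein. Its groups are other libraries than those above, fitted in the same model of a line with shared scaling and variance estimates, so that these comparisons are not fully independent. In MiaPaCa2, 12 members were called (30.8%), 9 higher and 3 lower, where 31.5% of the genes tested were called, 16.6% higher and 14.9% lower. The median over the members was 0.10. Scaled by library size alone, 13 members were called in MiaPaCa2, all higher, and with the GC correction 8, of which 7 were higher. In PANC1, 11 members were called (28.2%), all higher, where 8.18% of the genes tested were called, 3.87% higher and 4.31% lower. The median over the 39 members was 0.38. FEN1, GINS3 and GINS4 rose with gemcitabine in both lines, with and without genistein. In MiaPaCa2 with genistein, FEN1 stayed called after GC correction, at 0.47, while GINS3 at 0.39 and GINS4 at 0.37 did not.

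In MiaPaCa2, TK1 had 335 and 276 CPM with genistein and 477 and 625 with both drugs, a log2 fold change of 0.85 (SE 0.12, adjusted p = 1.7e-04 by limma-voom) that was 0.44 with the GC correction. LIG1 rose by 0.75, POLD1 by 0.70 and FEN1 by 0.65, with 0.46, 0.12 and 0.47 under the GC correction, where POLD1 was not called. PCNA, not called without genistein, rose from 300 and 304 to 437 and 416 CPM (log2 fold change 0.50, SE 0.07). CDC7 fell from 13.2 and 16.3 to 12.1 and 7.50 CPM, a log2 fold change of -0.65 (SE 0.20, adjusted p = 0.0183), and RFC3 and POLA1 were called lower at -0.50 and -0.45. Neither was called with the GC correction, at -0.32 for RFC3 and -0.31 for POLA1, nor was POLE4, at 0.31. RPA3 rose by 0.53, and PRIM1, PRIM2 and RPA1, called without genistein, had 0.21, 0.00 and 0.10.

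In PANC1, TK1 had 240 and 211 CPM with genistein and 400 and 535 with both drugs (log2 fold change 1.04, SE 0.20, adjusted p = 0.0211 by limma-voom). UHRF1 had 32.5 and 28.6 CPM and then 48.2 and 73.6 (log2 fold change 0.97, SE 0.23, adjusted p = 0.0394). POLD3 rose from 69.6 and 69.3 to 137 and 118 CPM (log2 fold change 0.87, SE 0.13), GINS3 by 0.77 and GINS4 by 0.75. CDC45 rose by 0.56 and UNG by 0.43. The UNG2 transcript had 126 FPKM in both co-treated libraries against 78.3 and 76.3 with genistein. CLSPN and TIPIN, called without genistein, had 0.41 (SE 0.21) and 0.58 (SE 0.24). No member was called when PANC1 genistein library I or II was left out, while the median stayed at 0.39 and 0.38, and 2 were called without co-treated library II. After GC correction 17 members were called, 10 of them shared.

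**Figure D5:**
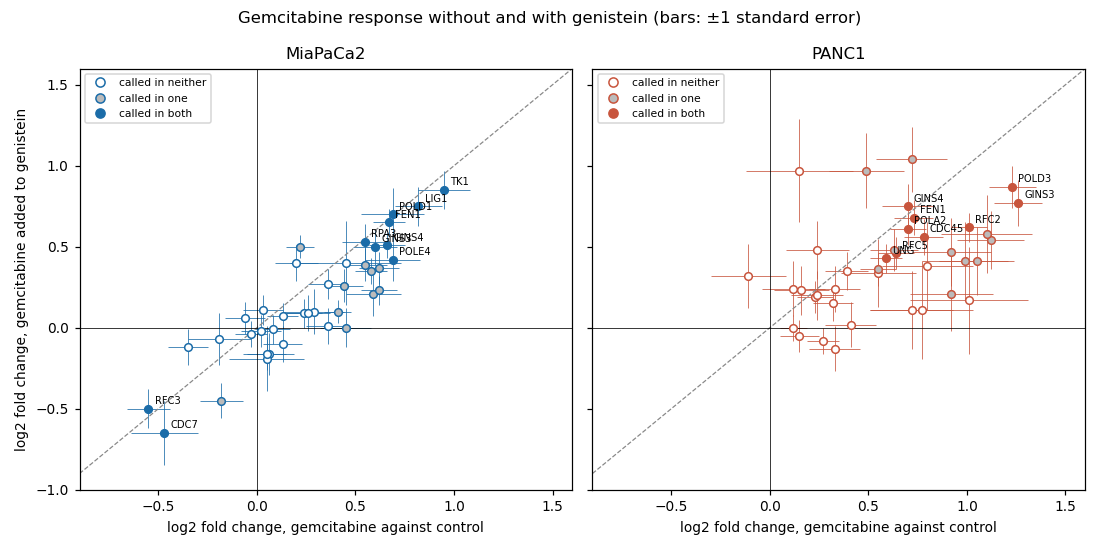
Log2 fold change with gemcitabine against control (horizontal axis) and with gemcitabine added to genistein (vertical axis) for the 39 members in each line, with standard errors; the dashed line marks equal values and names mark members called in both comparisons. In MiaPaCa2 10 members are called in both and in PANC1 9, and RFC3 and CDC7 are the only named members below 0.

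The interaction asks whether the gemcitabine response differs with and without genistein. It was called for 0 of the 39 members in MiaPaCa2, where 0.0249% of the genes tested passed, and for 0 in PANC1, where 0% passed. edgeR and DESeq2 called no member either. At an unadjusted p under 0.05 there were 5 members in MiaPaCa2, of which PRIM2, RFC2, GINS1 and RPA1 had negative values and PCNA a positive value, and 5 in PANC1 (PRIM1, PRIM2, RFC2, GINS3 and RPA1), all negative. No share of all genes tested was computed at that unadjusted p, so these counts have no background to be read against. The interaction for GINS3 in PANC1 was -0.49 (95% confidence interval -0.91 to -0.07, adjusted p = 0.734 by limma-voom). For TK1 it was -0.09 (-0.48 to 0.29) in MiaPaCa2 and 0.32 (-0.30 to 0.94) in PANC1.

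Genistein alone was compared with the control, in which it shares the control libraries with gemcitabine alone. In MiaPaCa2, 4 members were called (10.3%), all higher, where 8.31% of the genes tested were called, 4.18% higher and 4.13% lower. By the adjusted p alone 9 members passed, where 11.4% of the genes did. TK1 had 185 and 195 CPM in the controls and 335 and 276 with genistein (log2 fold change 0.67, SE 0.13, adjusted p = 0.00818 by limma-voom). GINS4 (chromosome 8, 41386737 to 41402549) had 92.2 and 86.6 CPM and then 138 and 138 (log2 fold change 0.62, SE 0.09, adjusted p = 0.00160). POLE4 rose by 0.56 (SE 0.14) and PRIM2 by 0.43 (SE 0.13). The groups did not overlap for any of these members. CDC7 had 13.2 and 16.3 CPM against 22.4 and 21.8 in the controls and did not pass (log2 fold change -0.57, adjusted p = 0.0529). Leaving out a library left 1 or 2 called members, 2 without either genistein library and 1 without either control library. GINS4 was among them each time.

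Genistein added to gemcitabine gave 3 called members in MiaPaCa2 (7.69%), where 5.88% of the genes tested were called, 4.05% higher and 1.83% lower. TK1 rose from 384 and 348 to 477 and 625 CPM (log2 fold change 0.58, SE 0.12) and GINS4 from 137 and 146 to 202 and 190 CPM (log2 fold change 0.47, SE 0.08, adjusted p = 0.00525 by limma-voom). GINS4 had 0.39 with the GC correction, below the fold threshold. CDC7 fell from 15.5 and 16.4 to 12.1 and 7.50 CPM (log2 fold change -0.75, SE 0.19, adjusted p = 0.0366). In these 3 members the groups did not overlap. No member was called without gemcitabine library I or II, 1 without co-treated library II and 5 without co-treated library I.

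In PANC1, genistein alone called 0 of the 39 members, where 0.0591% of the genes tested were called. At an unadjusted p under 0.05 there were 9 members, 7 higher and 2 lower, with 0 called by edgeR and 2 by DESeq2. No share of all genes tested was computed at that unadjusted p, here or for genistein added to gemcitabine. PRIM1 had 51.5 and 51.9 CPM against 29.9 and 40.9 in the controls (log2 fold change 0.54, SE 0.18), and was called with the GC correction. UHRF1 had 32.5 and 28.6 against 52.7 and 49.2 CPM (log2 fold change -0.73, SE 0.22, adjusted p = 0.156 by limma-voom). Genistein added to gemcitabine also called 0 members in PANC1, where 0.0177% of the genes tested were called. There were 5 members at an unadjusted p under 0.05, all lower, and edgeR and DESeq2 called 0. GINS3 had 53.2 and 53.4 CPM with gemcitabine and 39.7 and 36.1 with both drugs (log2 fold change -0.50, SE 0.12, adjusted p = 0.163), and was called lower with the GC correction at -0.57.

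The genistein response differed between the lines for 0 of the 39 members, where 0.0336% of the genes tested passed. At an unadjusted p under 0.05 there were 4 members, GINS4, UHRF1, TYMS and TK1, all with the lower value in PANC1, and edgeR and DESeq2 called 0. The share of all genes tested at that unadjusted p was not computed. The difference was -0.78 for TK1 (95% confidence interval -1.40 to -0.15, adjusted p = 0.354 by limma-voom) and -0.48 for GINS4 (-0.81 to -0.15, adjusted p = 0.293). With the GC correction TK1, GINS4 and GINS1 passed, at -0.38, -0.54 and -0.51.

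A list of 48 other replication genes, for origins and helicase loading, deoxynucleotide supply and chromatin assembly, was read beside the members. With gemcitabine alone 21 of the 48 (43.8%) were called in MiaPaCa2, 14 higher and 7 lower. Of all genes tested there 29.6% were called, 15.0% higher and 14.6% lower. In PANC1 17 of the list (35.4%) were called, all higher, where 7.52% of all genes tested were called. Their median was 0.11 in MiaPaCa2 and 0.50 in PANC1. CDT1, the licensing factor, rose by 1.30 in MiaPaCa2, and CDC6, which loads the MCM ring, by 1.36 in PANC1. The histone chaperone gene ASF1B rose by 1.01 in MiaPaCa2, while ASF1A fell by 0.87 on the log2 scale in MiaPaCa2. Calls in this list were not checked with the GC correction. With gemcitabine added to genistein, 20 of the 48 (41.7%) were called in MiaPaCa2, 13 of them higher, where 31.5% of all genes tested were called. In PANC1 7 (14.6%) were called, all higher, where 8.18% of all genes tested were called. Genistein alone gave 6 calls in MiaPaCa2 (12.5%), 3 in each direction, where 8.31% of all genes tested were called. It gave 0 in PANC1, where 0.0591% were called.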

How the data were processed

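RNA of 16 libraries was measured by poly-A RNA sequencing on a stranded kit. The authors mapped single reads to GRCh37 with TopHat2 2.0.4, removed reads with multiple alignments with Picard 1.29, and deposited whole-number counts per gene made with HTSeq 0.6.1, which are not normalized. They also deposited FPKM per gene and per transcript from Cufflinks 2.1.1. The annotation release and the strand setting are not given in the sources used here.

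Counts were joined to gene symbols by Ensembl identifier. A second identifier listed for RFC2 had no counts and was not used. The test was limma-voom, from limma 3.58.1 in R 4.3.3, on TMM-scaled counts after edgeR 4.0.16 filterByExpr, with the 8 libraries of a line in one model, or all 16 for comparisons between lines. All genes tested entered the Benjamini-Hochberg adjustment. Thresholds follow the study's methods. All 39 members passed the filter in every model, the lowest count of a member in any library was 34, and 1 member, POLD4, had a library under 100 counts. Chi-square per degree of freedom between replicates was 2.70 to 32.0, above sampling noise in each group. It was highest in the PANC1 control group, at 32.0, and the PANC1 co-treated group, at 19.7. The MiaPaCa2 groups ran from 3.46 to 10.3. Replicate numbers are not linked between groups by the labels.

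Alternatives were edgeR's quasi-likelihood test, DESeq2 1.42.0, other scalings, no filter, limma-trend on log2(FPKM + 1), other sets of libraries, adjusted p alone, a replicate block, a GC correction and each library left out. The GC correction removed a loess trend (span 0.3) of log2 CPM against the GC content of exons from GENCODE v44 lifted to GRCh37. UHRF1 had no GC content there and was left out of it. Gene positions are from that annotation. The fits were tested on simulated data.

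Described with values were PCNA, TYMS, TK1, DUT, UNG, CLSPN, TIMELESS, CDC45, GINS2, POLD4, UHRF1, RPA3 and, for each comparison, the 5 called members with the largest change; any other member could be named. Of the 48 other replication genes, those among the 3 largest called changes could be named. The members and lists were chosen with earlier results of these data known.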

Additional observations from a re-analysis of the deposited data

Results flagged for a closer look

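The gemcitabine response differed between PANC1 and MiaPaCa2 for 10 members in the model of all 16 libraries (adjusted p of at most 0.05 by limma-voom). As PANC1 minus MiaPaCa2 on the log2 scale, the difference was 1.44 for RFC3, 1.18 for CDC7, 1.01 for POLA1, 1.01 for POLD3, 0.98 for RFC1, 0.75 for POLE2, 0.56 for GINS3, 0.50 for GINS2, 0.44 for UNG and -0.53 for TIMELESS. POLD3 and RFC3 were called in all 9 alternative analyses and in all 8 that left out a library. POLE2 was called in 4 of the 9 alternatives and was not called with the GC correction. GINS2, GINS3, POLE2 and UNG were each called in 1 of the 8 analyses that left out a library, and CDC7 and TIMELESS in 2.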

How the results depend on the processing

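The number of members called stayed within 1.5 times its main value in 120 of 144 alternative analyses that kept all libraries. This compares numbers alone, not which members were called or in which direction. Comparisons with 0 members called in both the main and the alternative analysis are counted as within it. Between the untreated lines the GC correction turned the split of called members from 14 higher and 9 lower in PANC1 to 11 higher and 14 lower, and the median over the members from 0.05 to -0.07. limma-trend on log2(FPKM + 1) called 0 members with genistein in MiaPaCa2, 0 with genistein added to gemcitabine there, 10 with gemcitabine in PANC1 and 6 for the gemcitabine response between lines. DESeq2 called 2 with genistein in PANC1. In 1 model of all 16 libraries, 1 member was called in each of the 4 genistein comparisons within a line. With only the 4 libraries compared, 10 were called with gemcitabine and 1 with genistein in PANC1. By the adjusted p alone, 9 were called with genistein in MiaPaCa2. The GC correction called 1 with genistein in PANC1, 3 with genistein added to gemcitabine, 17 with gemcitabine added to genistein, 18 for the gemcitabine response between lines and 3 for the genistein response. The GC correction with a replicate block gave 1, 2, 17, 16 and 2. A replicate block alone called 10 with gemcitabine in PANC1 and 4 with gemcitabine added to genistein. Same-numbered libraries did not deviate together on average (mean correlation -0.065 in MiaPaCa2 and -0.079 in PANC1), so the numbers were not taken as pairs. Single pairs of groups ran from -0.299 to 0.155 in MiaPaCa2 and from -0.569 to 0.331 in PANC1. Scaling by library size alone moved the median of all genes with gemcitabine from -0.01 to 0.09 in MiaPaCa2 and from 0.03 to 0.14 in PANC1.

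With each library left out in turn, the count of called members ran from 13 to 17 for gemcitabine in MiaPaCa2, 1 to 2 for genistein, 0 to 5 for genistein added to gemcitabine and 11 to 13 for gemcitabine added to genistein. In PANC1 it ran from 3 to 21 for gemcitabine and 0 to 9 for gemcitabine added to genistein. It ran from 22 to 24 between the untreated lines and from 2 to 16 for the gemcitabine response between lines, and was 0 throughout for the others. A group left with 1 library was assumed to vary like the other groups. Every member but POLD4 had at least 100 counts in each library.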

Other observations

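The transcript estimates of UNG also differed between the lines in the treated groups. With both drugs the mitochondrial UNG1 transcript had 1.40 and 4.11 FPKM in PANC1 and 9.94 and 7.73 in MiaPaCa2. With genistein alone the MiaPaCa2 replicates were apart, at 20.4 and 8.72 FPKM. These are estimates for transcripts that share most exons, and they were not tested.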
